A study of Mus musculus with 258 samples.

Results

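The loops described here are the short chromatin loops of mouse splenic B cells, those whose anchors lie at most 50 kb apart on the autosomes. The distance was taken between the starts of the left and right anchor pixels, each 5 kb wide, on genome build mm9, so that the rule used length alone and no measured contact value. It chose 547 of the 1866 loops in the list for resting cells and 544 of the 4315 loops in the list for activated cells. A further 7 and 13 loops of this length on the sex chromosomes were left out.

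The series asks how the transcription factor Myc shapes chromatin and nuclear architecture as B cells are activated. Chromosome folding was measured by in situ Hi-C, which ligates crosslinked DNA ends inside the nucleus and counts how often each pair of genomic positions was joined. Both groups were wild-type (WT) C57BL6/J mice aged 6 to 8 weeks, and the B cells were taken from spleen by removing the other cell types. Resting cells (8 libraries) were used at 0 h without treatment, and activated cells (26 libraries) after 72 h with LPS at 50 µg/mL, IL-4 at 2.5 ng/mL and anti-CD180 antibody at 0.5 µg/mL. Per the deposited description each list comes from a pooled map, so there is 1 value per loop and state, and differences between animals or libraries cannot be measured. The lists hold no expression values, so the cell type was not checked against marker genes.

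A chromatin loop is a pair of positions that touch more often than their surroundings. Many loops in mammalian cells form where the cohesin complex extrudes DNA until it is halted by the protein CTCF bound at both anchors, and others join promoters and enhancers. Resting B cells hold small nuclei with condensed chromatin, and activation with LPS and IL-4 brings them into growth, division and antibody class switching.

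The lists held close to the same number of short loops, while longer loops were far more numerous after activation. On the autosomes the lists held 547 and 544 short loops, an activated over resting ratio of 0.995 (95% interval 0.882 to 1.12, exact conditional binomial, counting error only). Loops over 50 kb numbered 1267 and 3665, a ratio of 2.89 (2.71 to 3.09). The near equality of short loops depended on the limits used. Among loops with all 4 q-values of 0.01 or lower the ratio was 1.23 (1.07 to 1.41), and with a limit of 60 kb it was 1.13 (1.02 to 1.26). Short loops were 30.2% of the resting autosomal list and 12.9% of the activated one. Library depth is unknown, but expected contacts were higher in activated cells at loops found at the same pixel in both lists. Against the donut the median ratio was 1.67 (1.60 to 1.75) at the 95 short loops and 1.52 (1.47 to 1.58) at 322 longer ones. Activated counts were then divided by the ratio of 1.67 and held to the loosest values found in the resting list. That left 487 activated short loops, a ratio of 0.890 (0.786 to 1.01), and 3662 of all 4209 activated autosomal loops. The step can only remove called loops and does not call loops anew.

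The shortest distance in either list was 35 kb, and it was also the most frequent. Both lists end there, so contacts at shorter distances cannot be described. The part of this edge in the values of 35 kb loops, here and further on, was not tested. The 35 kb distance held 270 resting loops, 49.4% of the short ones, and 236 activated loops, 43.4%. At 40 kb there were 104 resting and 122 activated loops, at 45 kb 103 and 104, and at 50 kb 70 and 82. The activated over resting ratio was 0.874 (0.731 to 1.04) at 35 kb and 1.17 (0.841 to 1.64) at 50 kb, and all 4 intervals from 35 to 50 kb included 1. Just outside the limit, at 55 kb, the lists held 51 and 98 loops, a ratio of 1.92 (1.36 to 2.75). From 55 to 100 kb the lowest ratio in a 5 kb step was 1.37 at 65 kb (0.968 to 1.94) and the highest 3.00 at 95 kb (2.04 to 4.51).

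**Figure D1:**
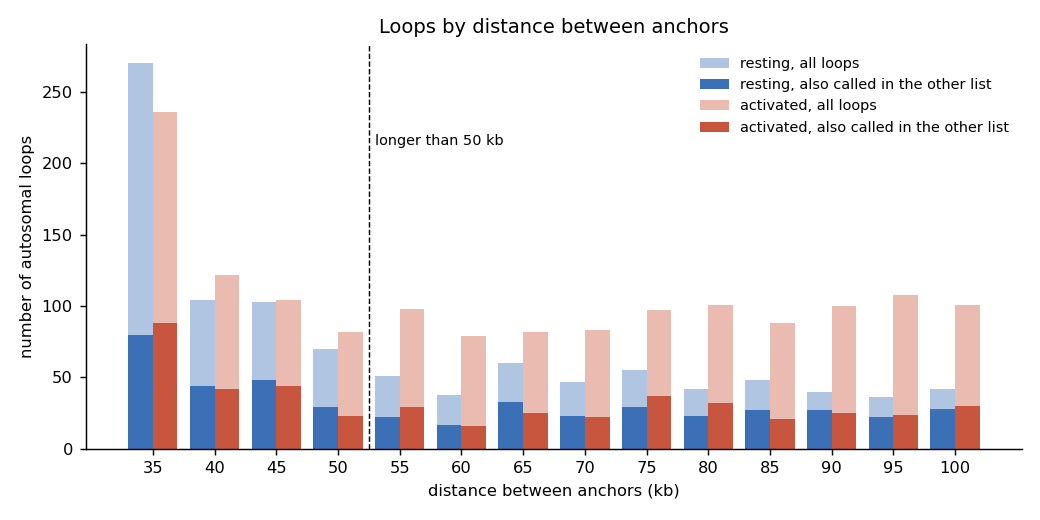
Number of autosomal loops (y axis) at each distance between anchors from 35 to 100 kb (x axis) in the resting (blue) and activated (red) lists. The dark lower part of each bar is the loops also called in the other list, and the dashed line marks the 50 kb limit: the bars of the 2 states are alike in height to its left and the activated bars are higher to its right.

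Most short loops of each list were not called in the other. A loop was counted as called in both when a loop of the other list, of any length, had both anchors within 10 kb. In resting cells 201 of 547 short loops met this (36.7%, Wilson 95% interval 32.8 to 40.9), against 56% of all autosomal loops of that list and 64.3% of the longer ones. In activated cells 197 of 544 did (36.2%, 32.3 to 40.3), against 24.1% of all autosomal loops and 22.3% of the longer ones. Short loops were thus called again less often than longer ones when read from the resting list and more often when read from the activated list, which is the longer list by far. In resting cells the 35 kb loops were shared in 29.6% (24.5 to 35.3) and those of 40 to 50 kb in 43.7% (38 to 49.6). In activated cells the shares were 37.3% (31.4 to 43.6) and 35.4% (30.3 to 40.9). A loop missing from a list was not called there, which does not show that the contact was absent.

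Anchors of short loops called in a single list were matched more often in the activated than in the resting list, and this held for loops of all lengths. The activated list also offers more anchors to match, with 4209 autosomal loops against 1814. Among the 346 short loops called in resting cells alone, 168 (48.6%, 43.3 to 53.8, against 35.2% of all autosomal loops called in resting cells alone) had no anchor within 10 kb of any anchor of an activated loop, 156 had 1 such anchor and 22 had both without a loop joining them. Among the 347 called in activated cells alone, 252 (72.6%, 67.7 to 77.0, against 69.4% of all autosomal loops called in activated cells alone) matched no resting anchor, 88 matched at 1 end and 7 at both. Counting all resting short loops, 69.3% (65.3 to 73.0) matched an activated anchor at 1 end or both, against 84.5% of all resting autosomal loops. Counting all activated ones, 53.7% (49.5 to 57.8) matched a resting anchor, against 47.4% of all activated autosomal loops.

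Loops called in both lists differed in position by at most 10 kb per anchor, as the matching requires. When each short resting loop was joined to its nearest activated partner there were 201 pairs, of which 95 sat at the same pixel at both anchors. The left anchor was unchanged in 141 pairs and the right anchor in 134. The distance between anchors was equal in 103 pairs, greater in activated cells in 50 and smaller in 48. In 15 pairs the activated partner was over 50 kb and so was not itself a short loop.

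The strength of a loop was measured as observed contacts over the contacts expected from a local background, a ratio without unit. The donut background is a ring of pixels around the loop, the lower left background is the part of it that lies between the anchors and towards the diagonal, and the horizontal and vertical backgrounds are strips along the row and the column. Short loops were weaker than longer ones against the donut in both states. Resting short loops had a median donut ratio of 2.18 (2.14 to 2.21, order-statistic 95% interval over loops) and activated ones of 2.12 (2.09 to 2.15). For longer loops the medians were 2.85 (2.80 to 2.88) and 2.93 (2.90 to 2.97). The lowest donut ratio of any autosomal loop was 1.75 (resting) and 1.76 (activated), so weaker contacts are not in the lists. Median donut-expected contacts were 34.3 and 49.7 at short loops, against 20.1 and 21.9 at longer ones. Over short loops the rank correlation of donut ratio with expected contacts was -0.38 (resting) and -0.14 (activated). The part of these limits in the lower medians was not tested. A donut ratio under 2 was found in 142 resting short loops (26%), against 9.59% of all resting autosomal loops, and in 157 activated ones (28.9%), against 5.3%. A ratio of at least 3 was found in 25 resting (4.57%) and 28 activated (5.15%) short loops, against 40.5% and 46.6% of longer loops. The median count at the pixel was 74 contacts in resting short loops (range 32 to 187, and 1 loop at 999 described further on) and 106 in activated ones (32 to 362), against 56 and 63 in longer loops.

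Strength against the donut rose with distance even within this narrow range. In resting cells the median ratio was 2.09 (2.05 to 2.13) at 35 kb, 2.19 at 40 kb, 2.24 at 45 kb and 2.36 (2.30 to 2.51) at 50 kb. In activated cells it was 2.06 (2.02 to 2.10), 2.09, 2.20 and 2.23 (2.18 to 2.32) at the same distances. Just outside the limit, at 55 kb, it was 2.36 (resting) and 2.27 (activated). Against the horizontal strip the order was not the same, since resting loops of 35 kb had a median ratio of 2.21 and those of 45 kb 1.91. The vertical strip gave 2.22 and 1.95 for the same loops.

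The 2 states differed most against the lower left background. Against it resting short loops had a median ratio of 2.72 (2.67 to 2.75) and activated ones of 2.28 (2.24 to 2.33). Longer loops had 2.86 and 2.83. A smaller contrast was present in those of 55 to 100 kb, with 2.66 (2.62 to 2.70) and 2.47 (2.44 to 2.51). For short loops the horizontal medians were 2.08 (2.04 to 2.10, resting) and 1.98 (1.94 to 2.00, activated), and the vertical ones 2.08 (2.04 to 2.12) and 1.99 (1.96 to 2.02). The intervals give the spread over loops of 1 pooled list per state and are no test between states. At the 95 short loops found at the same pixel in both lists, the horizontal and vertical ratios were alike. Their median log2 differences, activated minus resting, were -0.02 (-0.10 to 0.04) and 0.04 (-0.03 to 0.09). The expected contacts themselves showed the same contrast: the lower left expectation was a median 0.823 (0.808 to 0.835) of the donut expectation in resting and 0.938 (0.923 to 0.947) in activated short loops. It was below the donut expectation in 517 of 547 resting short loops (94.5%), against 68.2% of all resting autosomal loops, and in 399 of 544 activated ones (73.3%), against 46%. At 35 kb the 2 medians were 0.758 and 0.892, and at 50 kb 0.896 and 0.960. For loops of 55 to 100 kb they were 0.932 and 0.993, and for loops of 200 to 500 kb 1.05 and 1.06. In both lists the depression of the lower left background was deepest at 35 kb, the distance at which the lists end.

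The donut was the least favourable of the 4 backgrounds in 110 resting short loops (20.1%, 17 to 23.7) and in 31 activated ones (5.70%, 4.04 to 7.98). Among longer loops that was so in 1 resting and 2 activated loops. In 224 resting and 269 activated short loops the horizontal strip gave the lowest ratio, in 210 and 222 the vertical strip, and in 3 and 22 the lower left background.

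**Figure D2:**
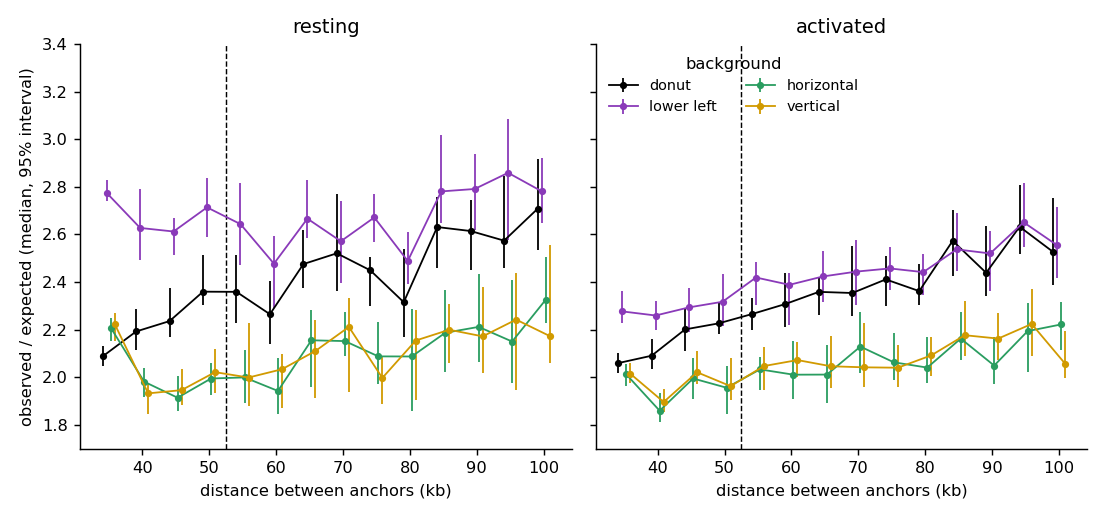
Median ratio of observed to expected contacts (y axis, bars are 95% intervals over loops) against the distance between anchors (x axis, kb) for the 4 local backgrounds, resting list on the left and activated list on the right. At 35 kb the lower left ratio stands at 2.77 in resting and 2.28 in activated cells, while the donut ratios of 2.09 and 2.06 lie close together.

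Loops at the same pixel in both lists allow a loop by loop comparison, and the donut strength of the short ones was higher in activated cells about as often as lower. The median donut ratios of these short loops were 2.46 in resting and 2.29 in activated cells. Such loops had to be called in both lists, so a loop that fell below the limits in 1 state is not among them. Large changes can therefore be missed here. The median log2 difference, activated minus resting, was 0.01 (-0.05 to 0.06) over the 95 short loops, with 47 lower in activated cells (49.5%, against 39.6% of all 417 same-pixel loops). It ran from -0.58 to 0.57, and no short loop passed a 1.5-fold change, against 2.64% of all same-pixel loops. The horizontal and vertical medians were -0.02 (-0.10 to 0.04) and 0.04 (-0.03 to 0.09). The horizontal ratio was lower in activated cells in 52 loops and the vertical in 42 (54.7% and 44.2%, each against 43.6% of all same-pixel loops). Against the lower left background the median was -0.20 (-0.30 to -0.14), and 78 of 95 loops were lower in activated cells (82.1%, against 52.5% of all same-pixel loops). The 322 longer loops at the same pixel had a lower left median of 0.07 (0.00 to 0.12) and a donut median of 0.09 (0.05 to 0.14). Expected contacts at the short loops were 1.67-fold higher in activated cells in the donut and 1.90-fold higher (1.85 to 2.00) in the lower left background. Without the 35 kb loops the lower left median was -0.12 (-0.21 to -0.04).

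**Figure D3:**
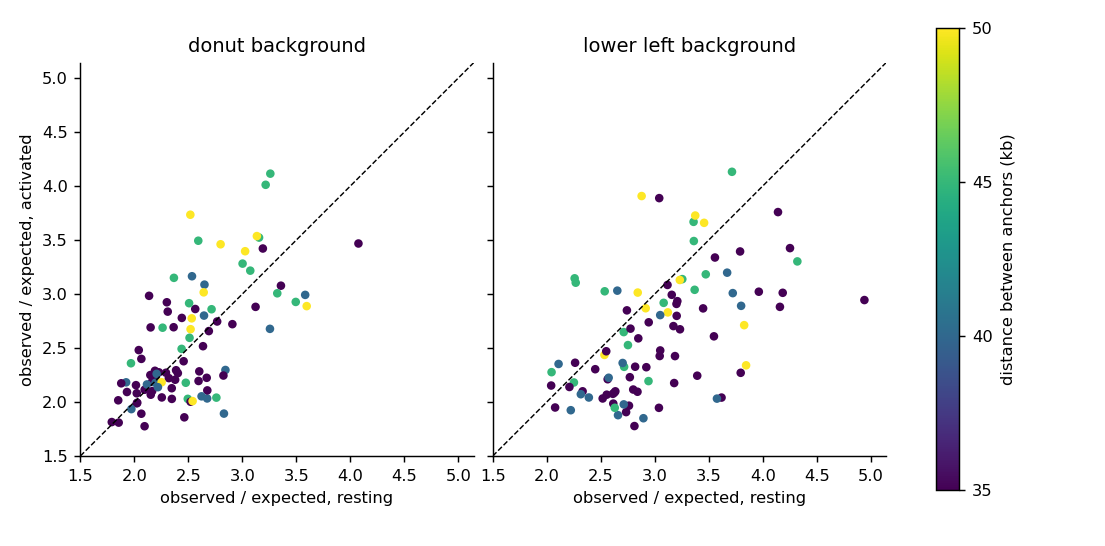
Ratio of observed to expected contacts in resting (x axis) and activated cells (y axis) for the 95 short loops at the same pixel in both lists, against the donut (left) and the lower left background (right). Each point is 1 loop, its shade is the distance between anchors in kb and the dashed line marks equal ratios: 47 points lie below the line on the left and 78 on the right.

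The largest rise among these loops was on chromosome 11 at 54745001 to 54800000, where 99 contacts over 39.3 expected in resting cells became 249 over 66.7 in activated cells. Its donut ratio went from 2.52 to 3.73, a log2 difference of 0.57 (0.23 to 0.92, counting error of the observed contacts only). The next rises were on chromosome 13 at 43845001 to 43885000, with 2.14 and 2.98, and on chromosome 6 at 122205001 to 122255000, with 2.59 and 3.49. Against the lower left background the chromosome 13 ratios were close, 2.26 and 2.36. The counting interval of the chromosome 6 log2 difference, -0.07 to 0.96, included 0. The largest fall was on chromosome 19 at 10065001 to 10110000, where 87 contacts over 30.7 expected became 106 over 56.0. Its donut ratio went from 2.83 to 1.89, a log2 difference of -0.58 (-1.0 to -0.15), and its ratios against the other 3 backgrounds were lower too. The next falls were on chromosome 7 at 20250001 to 20300000, with 2.76 and 2.04, and on chromosome 17 at 25900001 to 25940000, with 2.46 and 1.86. For the chromosome 17 loop the counting interval, -0.90 to 0.09, included 0. The counting interval excluded 0 upward in 2 of the 95 loops, against 6.47% of all same-pixel loops, and downward in 3, against 1.68%. Each is a separate 95% interval without correction for the 95 loops, and a few such intervals exclude 0 by counting error alone. The loops named here were picked as the extremes, so their intervals do not show that these loops changed.

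Of the 3 strongest short loops of each list, all but the strongest activated one were called in both lists. This does not extend to strong loops in general. With both lists held to a donut ratio of at least 2, 39.5% of resting and 40.1% of activated short loops were called in the other list. In resting cells the highest donut ratio was 4.07, at chromosome 6, 128715001 to 128755000, with 52 contacts over 12.8 expected. The same pixel in activated cells had 71 contacts over 20.5 expected, a ratio of 3.47. The next were chromosome 4, 140460001 to 140515000 (3.60 in resting and 2.89 in activated cells), and chromosome 7, 19885001 to 19930000 (3.58 and 2.99). In activated cells the highest ratio, 5.36, belonged to a loop of few contacts, 40 over 7.47 expected, at chromosome 13, 19330001 to 19380000. It was not called in resting cells, and the farther anchor of the nearest resting loop lay 2170 kb off. The next were chromosome 11, 101780001 to 101830000, with 173 contacts over 42.1 expected (4.11, and 3.26 in resting cells), and chromosome 10, 87840001 to 87890000, with 168 over 41.9 (4.01, and 3.22 in resting cells).

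Among loops called in resting cells alone the 3 highest donut ratios were lower, 3.38 on chromosome 8 at 48760001 to 48800000, 3.18 on chromosome 4 at 9540001 to 9595000 and 3.17 on chromosome 5 at 109980001 to 110030000. The chromosome 4 loop, 50 kb long, had the same left anchor as a 35 kb activated loop at 9540001 to 9580000, whose ratio was 1.96. Among loops called in activated cells alone, the chromosome 13 loop was followed by chromosome 4, 86265001 to 86305000 (3.17), and chromosome 17, 29185001 to 29235000 (3.06). The loop on chromosome 17 lay within 2 longer activated loops, and its nearest resting loop had its left anchor 5 kb away and a length of 130 kb.

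Short loops called in both lists were stronger and broader than those called in a single list. A shared loop had to pass the limits of both lists, so this comparison is not independent of how the classes were made. The median donut ratio was 2.37 (2.31 to 2.44) for shared and 2.09 (2.06 to 2.12) for single-list short loops in resting cells, and 2.26 (2.21 to 2.35) and 2.06 (2.03 to 2.09) in activated cells. The number of enriched pixels merged into a loop gives its breadth on the map. It had a median of 4 for shared and 2 for single-list short loops in resting cells, and of 6 and 2 in activated cells.

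Short loops were made of few pixels, and activated ones reached higher numbers. Resting short loops had a median of 2 merged pixels and activated ones of 3, against 3 and 4 in longer loops. A single pixel made up 107 resting short loops (19.6%, 16.5 to 23.1), against 14.6% of all resting autosomal loops, and 100 activated ones (18.4%, 15.4 to 21.9), against 11.2%. Such loops were most frequent at 35 kb, with 29.6% of resting and 29.2% of activated loops, and at 50 kb the shares were 8.57% and 4.88%. Just outside the limit, at 55 kb, they were 11.8% and 8.16%. At least 10 pixels were merged in 15 resting short loops (2.74%), against 6.23% of all resting autosomal loops, and in 89 activated ones (16.4%), against 17.5%. At the 95 shared pixels the medians were 4 (resting) and 6 (activated), with more pixels in activated cells in 63 loops (against 81.5% of all same-pixel loops), fewer in 14 and as many in 18. The part that map depth takes in this difference was not tested.

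A resting loop on chromosome 11 at 3045001 to 3090000, picked after its values were seen, had 999 contacts over 437 expected. That is a donut ratio of 2.29, near the median, and its 25 merged pixels were the most of any resting short loop. It lay near the start of the chromosome, where read mapping was not tested, and its counts stand apart from those of all other short loops. It was not called in activated cells, whose nearest loop had its farther anchor 1075 kb off. The next highest resting count was 187 contacts, on chromosome 1 at 135955001 to 136000000, where activated cells had 250. The highest activated count was 362, on chromosome 9 at 107195001 to 107240000, with a ratio of 3.46. Its resting partner, with the right anchor 5 kb further out, had 78 contacts and a ratio of 2.46.

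Short loops had the same overall density in both states and were spread unevenly over the chromosomes, in a similar order. Resting cells had 0.223 and activated cells 0.222 short loops per Mb, over 2453 Mb of autosomes counted to the last loop anchor of either list. Chromosome 11 was the densest, with 59 and 66 short loops (0.485 and 0.542 per Mb), followed by chromosome 19 in resting cells (0.376) and chromosome 7 in activated cells (0.387). The sparsest were chromosome 12 in resting cells (11 loops, 0.0916 per Mb) and chromosome 16 in activated cells (9 loops, 0.0929 per Mb). Over the 19 autosomes the rank correlation of density between states was 0.85, and that of short with longer loops was 0.67 (resting) and 0.69 (activated). These are descriptions over chromosomes that share the same 2 maps. Activated cells had more short loops on 9 autosomes, fewer on 9 and as many on 1, and in none did the counting interval of the ratio exclude 1. The lowest ratio was on chromosome 17, with 30 and 18 loops (0.600, 0.315 to 1.11).

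**Figure D4:**
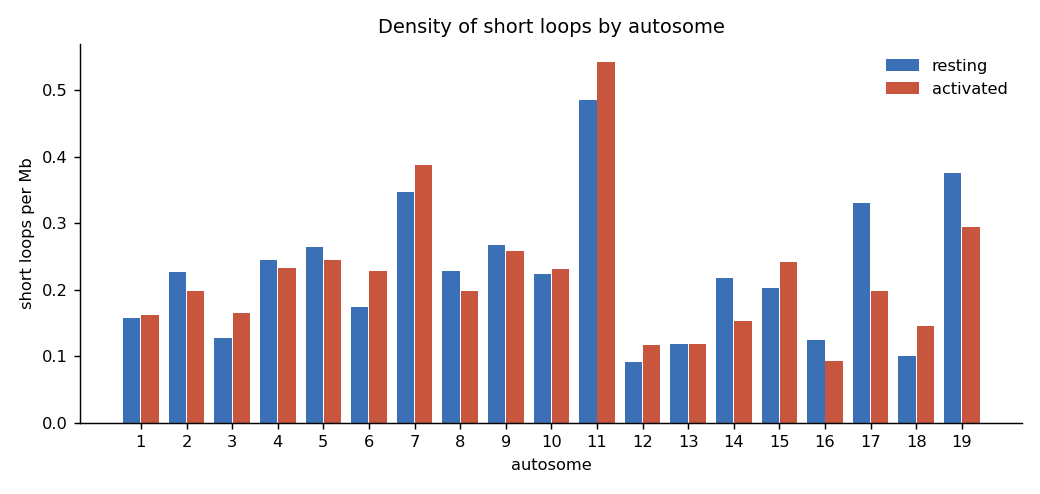
Short loops per Mb (y axis) on each autosome (x axis) in the resting (blue) and activated (red) lists. Chromosome 11 is highest in both, at 0.485 and 0.542 per Mb, and chromosomes 12, 13, 16 and 18 are low in both.

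Within chromosomes, bins with short loops in one list often had them in the other. Of 2463 bins of 1 Mb, 84.4% held no resting and 84.0% no activated short loop. With a mean of 0.222 resting short loops per bin, these shares are largely set by the number of loops. The variance of the count over its mean was 1.64 for resting and 1.58 for activated loops. Bins with at least 2 short loops held 273 resting (49.9%) and 251 activated (46.1%) ones. A short loop of both lists was found in 228 bins, which were 59.4% of the bins with a resting and 57.9% of those with an activated short loop, while 16.0% of all bins had an activated and 15.6% a resting one. Bins with a short loop also had a longer one of the same list in 71.6% (resting) and 93.7% (activated) of cases, against 30.6% and 55% of all bins. The nearest other short loop lay a median 507.5 kb away (367.5 to 600.0) for resting loops and 457.5 kb (380.0 to 635.0) for activated ones, and within 100 kb for 98 (17.9%) and 83 (15.3%) loops.

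The densest resting bin, chromosome 1 at 182000001 to 183000000, held 6 resting and 3 activated short loops. The resting loop at 182110001 to 182150000 had 95 contacts and a donut ratio of 2.19, and the same pixel in activated cells had 146 contacts and a ratio of 2.29. The loop at 182920001 to 182970000 was also at the same pixel in both, with 71 and 98 contacts and ratios of 2.48 and 2.18. The other 4 resting loops, with 63 to 81 contacts and ratios of 1.75 to 2.14, were not called in activated cells. The activated list also had a 35 kb loop at 182365001 to 182405000 with 138 contacts, and a 325 kb loop from 182365001 to 182695000 whose right anchor was that of the resting short loop at 182650001 to 182695000.

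The densest activated bin, chromosome 7 at 133000001 to 134000000, held 6 activated and 4 resting short loops. Of the activated ones, 3 had a resting partner, and the ratios of these were 2.05, 2.18 and 2.68 in activated and 2.16, 2.25 and 2.05 in resting cells. The resting loop at 133540001 to 133580000, with 96 contacts and a ratio of 2.01, was not called in activated cells. There the same left anchor belonged to a 130 kb loop at 133540001 to 133675000 with 119 contacts and a ratio of 2.97. That loop ended at the right anchor of the short loop at 133620001 to 133675000, which both lists held at the same pixel.

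Few short loops were chained end to end, meaning that the right anchor of one lay within 10 kb of the left anchor of the next. This held for 50 resting (9.14%, 7.00 to 11.8) and 29 activated (5.33%, 3.74 to 7.55) short loops. The order of the states changed without the 35 kb loops, with 2.17% in resting and 3.90% in activated cells. It also changed among loops with a donut ratio of at least 2, with 4.94% and 5.68%, and among loops with all 4 q-values at most 0.01, with 5.36% and 5.88%. With a neighbour of any length allowed, 89 resting (16.3%, 13.4 to 19.6) and 117 activated (21.5%, 18.3 to 25.2) short loops were chained, against 14.3% and 21.2% of all autosomal loops. The short loops were thus chained about as often as loops of all lengths. Only 3 pairs of resting and 1 pair of activated short loops overlapped, and none shared an anchor on the same side within 10 kb. Enriched pixels that lie close together are merged into 1 loop in these lists, so such pairs may have been joined. The part of this merging in the low counts was not tested.

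Chains of short loops were pairs with 1 exception. Resting cells had 25 runs of 2 loops, and activated cells 13 runs of 2 and 1 run of 3. The first resting run, on chromosome 1 from 88335001 to 88435000, joined loops of 50 and 35 kb with ratios of 2.66 and 2.16, both called in activated cells too. The run of 3 lay on chromosome 9 from 107500001 to 107630000. Its loops had 156, 116 and 117 contacts and ratios of 1.94, 1.77 and 1.92, all weaker than the activated median, and none was called in resting cells, which had no loop of any length lying between 107245000 and 107805001.

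Short loops often lay within longer ones, and more often in activated cells, where longer loops covered more of the genome. A longer loop of the same list spanned 167 resting short loops (30.5%, 26.8 to 34.5) and 266 activated ones (48.9%, 44.7 to 53.1). Among all autosomal loops, 22.5% of the resting and 33.7% of the activated ones lay within a loop longer than themselves. For loops of 55 to 100 kb the shares were 23.7% and 44.2%. Longer resting loops covered 7.66% of the autosomes and longer activated ones 25.6%. When the lists were exchanged the order turned: longer activated loops spanned 292 resting short loops (53.4%, 49.2 to 57.5), and longer resting loops 142 activated ones (26.1%, 22.6 to 30.0). The spanned share did not follow the length of the short loop, with 31.5% at 35 kb and 30.0% at 50 kb in resting cells and 50.0% and 46.3% in activated cells.

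**Figure D5:**
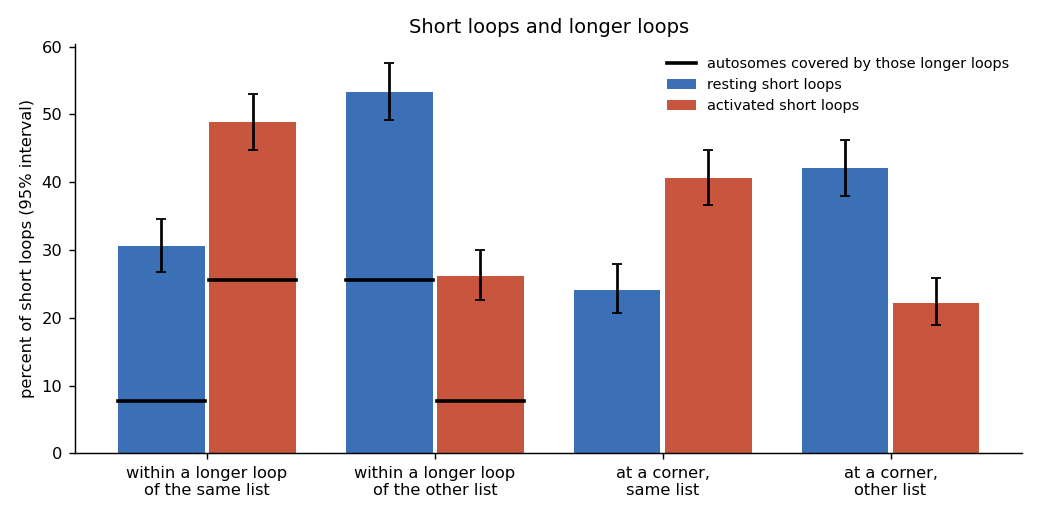
Percent of short loops (y axis, error bars are Wilson 95% intervals) of the resting (blue) and activated (red) lists that lay within a longer loop or at its corner, with longer loops taken from the same or the other list. Black lines give the share of the autosomes those longer loops cover, 7.66% for resting and 25.6% for activated ones, and all 4 spanned shares stand above them.

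Most spanned short loops sat at an end of the longer loop. A short loop was counted at a corner when 1 of its anchors lay within 10 kb of the same-side anchor of a longer loop that reached beyond its other anchor. This held for 132 resting (24.1%, 20.7 to 27.9) and 221 activated (40.6%, 36.6 to 44.8) short loops, against 18.5% and 30.9% of all autosomal loops with respect to loops that reach further. For loops of 55 to 100 kb the shares were 18.1% and 39.7%, so in activated cells the short loops were close to them. Among the spanned short loops the corner rule held for 114 of 167 resting (68.3%, 60.9 to 74.8) and 204 of 266 activated (76.7%, 71.3 to 81.4) loops. The share among spanned loops of other lengths was not counted. Left and right corners were used alike, with 73 and 61 resting and 113 and 112 activated loops. Both corners, of different longer loops, were used by 2 resting and 4 activated loops. The shortest longer loop around a short one had a median length of 120.0 kb for resting and 145 kb for activated loops, with the nearer edges a median 5 kb apart in both. With at least 10 kb to spare at each end, 14.6% of resting and 22.8% of activated short loops were spanned.

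Some short loops of resting cells had a corner that was filled by a longer loop in activated cells alone. Of the 346 short loops called in resting cells alone, 70 (20.2%, 16.3 to 24.8) were at a corner of a longer activated loop and at none of a longer resting loop. A further 68 were at a corner in both lists, 17 in the resting list alone and 191 in neither. Of the 347 short loops called in activated cells alone, 15 (4.32%, 2.64 to 7.01) were at a corner of a longer resting loop and at none of a longer activated one, 50 in both, 87 in the activated list alone and 195 in neither. The activated list has more longer loops by which a corner can be met. The same split was not counted over all autosomal loops, so whether it is particular to short loops was not tested.

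Spanned short loops had lower median donut ratios than the others, more so in resting cells, while loops at a corner were close to the rest. In resting cells the median donut ratio was 2.08 (2.03 to 2.18) for spanned and 2.21 (2.16 to 2.25) for other short loops, and in activated cells 2.10 (2.06 to 2.14) and 2.14 (2.10 to 2.19). At a corner it was 2.19 in resting cells, against 2.17 for short loops at no corner. The activated medians were 2.13 and 2.11. The donut-expected contacts at spanned loops were higher in resting cells, with medians of 38 and 32.6, and were 51.3 and 49.0 in activated ones. Spanned resting short loops were called in activated cells in 28.1% of cases and the other ones in 40.5%. In activated cells the corresponding shares were 34.2% and 38.1%.

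Most longer loops with a short loop inside had a single one. In resting cells 192 longer loops (15.2%) spanned at least 1 short loop, 174 of them 1, 17 of them 2 and 1 of them 3. In activated cells 337 (9.20%) did, 311 of them spanning 1 and 26 spanning 2. The loop with 3 was a 200 kb loop of chromosome 14, at 122325001 to 122530000, with 44 contacts and a donut ratio of 2.96. The short loops within it, at 122330001 to 122370000, 122360001 to 122410000 and 122460001 to 122510000, had 68, 85 and 99 contacts and ratios of 1.79, 2.02 and 2.39. None of the 3 was called in activated cells, and neither was the 200 kb loop. Resting cells also held a 125 kb loop at 122335001 to 122465000, with 110 contacts and a ratio of 2.73. Its activated partner was a 130 kb loop at 122330001 to 122465000 with a ratio of 2.43, and activated cells also had a 100 kb loop at 122360001 to 122465000 with a ratio of 2.52, which began at the left anchor of the second resting short loop. In activated cells the first of the longer loops with 2 short ones was on chromosome 1 at 133890001 to 134005000, 110 kb long with a ratio of 2.47.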

How the data were processed

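In situ Hi-C loop lists of resting and activated B cells were used, 1 deposited list per state, with all columns mapped. Per the submitters' processing notes, reads were handled with BWA and Juicer on mm9, with neither versions nor a loop caller named. The deposited values, per the file headers, are observed contact counts, expected contacts from 4 local backgrounds (a signal on the scale of the counts), q-values and the count of merged pixels. The lists hold only loops past the authors' limits: in the authors' deposited table the highest donut q-value was 0.0614 for resting and 0.0793 for activated cells. The activated list's name gives no time, and it was taken as the 72 h state, the one activated state without deletion or inhibitor. Replicate variation and library depth are unknown, so no p-values were computed between states.

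Partners, chains and spans were computed in Python 3.11.15 with NumPy 2.4.6, pandas 2.3.3 and SciPy 1.17.1, and tested on simulated loops. Intervals are 95% (Wilson, exact conditional binomial, order statistics), treat loops as independent and cover counting error or the spread over loops only. Loops were named by rule: the 3 strongest with at least 30 contacts per list, overall and in that list alone, the 3 largest rises and falls at the same pixel, and the longest run, densest bin and fullest longer loop, with ties going to the lowest chromosome and start. Members, lists and rules were chosen with earlier results of these data known. Sequences and gene annotation were not used here, since the reference build differs.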

Additional observations from a re-analysis of the deposited data

How the results depend on the processing

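The counts, shares and medians of 17 results were recomputed in 162 alternative values, changing 1 choice at a time: 93 stayed within the interval of the reported value and 69 left it. Anchor matching, lower left over donut expectations, nearest distances, strength by position, counts of corners by list and merged pixels at the same pixel had no alternative. The order of the states turned for chaining under 3 of 10 alternatives, for the share called in the other list under 5 of 13, for the spanned share under 1 of 10, and under 1 each for single-pixel loops and loops in bins of at least 2. Leaving out the 35 kb loops was chosen after seeing the data, as were the alternatives of the lower left difference at the same pixel. No paired analysis was possible because each state has 1 pooled list, and for the same reason no replicate could be left out. The cause was not tested where a value left its interval.

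Requiring all 4 q-values to be 0.01 or lower moved the activated over resting number to 1.23, and a length limit of 60 kb to 1.13. Under the q limit the activated share called in the other list was 31.2%, the median donut ratios were 2.26 (resting) and 2.16 (activated), and single-pixel loops were 28.7% (resting). Under it, too, loops in 1 Mb bins of at least 2 were 44.2% (resting), chained loops 5.36% (resting), spanned loops 22.3% and 37.5%, and loops at a corner 16.4% and 31.6% (resting and activated throughout). With a donut ratio of at least 2 the medians were 2.29 and 2.22, loops in shared bins 43.0% and 39.3%, chained loops 4.94% (resting) and spanned loops 25.7% (resting). With at least 2 merged pixels the activated share in such bins was 40.5% and the resting chained share 6.82%. With a limit of 45 kb the activated share in bins was 41.3%, and with 60 kb the bin shares were 54.6% and 54.9% and the activated donut median 2.16. Without the 35 kb loops the resting share called in the other list was 43.7%, the donut medians 2.29 and 2.17, and the same-pixel log2 medians 0.066 (donut) and -0.12 (lower left). The same step gave single-pixel shares of 9.75% and 10.1%, bin shares of 37.5% and 33.4% and a resting chained share of 2.17%.

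Other choices changed what was counted. The share called in the other list was 17.4% and 17.5% at the same pixel, 29.4% and 29.2% within 5 kb, 41.3% within 20 kb (resting), and 42.8% and 40.4% within 25 kb. Medians against the lower left, horizontal and vertical backgrounds were 2.72, 2.08 and 2.08 in resting and 2.28, 1.98 and 1.99 in activated cells, and the lower left same-pixel median was -0.20. Bins of 500 kb gave 36.2% and 32.7%, and bins of 2 Mb 63.6% and 61.8%. Chained loops were 3.29% and 0.368% at the same pixel, 6.22% and 3.13% within 5 kb, and 12.6% and 8.09% within 20 kb. Spanned loops were 14.6% and 22.8% with 10 kb to spare at each end, 23.6% and 42.8% with longer loops of at least 100 kb, and 53.4% and 26.1% with longer loops of the other list. Corners were 13.9% and 21.7% at the same pixel, 34.0% within 5 kb (activated), and 28.9% and 45.8% within 20 kb. The corner share was higher in activated cells under all 10 of its alternatives, and the spanned share under 9 of 10, the exception being longer loops of the other list. The lists hold called loops only. Map depth was addressed for the number and the sharing of short loops alone, by the scaling with 1.67. Since that step only removes called loops, it cannot show the part of depth in what was called.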
